A study of Saccharomyces cerevisiae with 12 samples.

Results

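The response of wild type Saccharomyces cerevisiae to alkaline pH was set against its response to low glucose, gene by gene. The comparison takes in every wild type array of the study, 4 at alkaline pH and 2 at low glucose, which are 6 of its 12 arrays. The other 6 arrays, of a snf1 mutant, entered only the estimate of the spread and of the dye effect. Each two-colour array held the RNA of a treated and of a control culture of one strain, labelled with Cy3 and Cy5. Each value is the deposited log ratio of treated over control. Neither the labels nor the table name its base, and it is read here as log2. The direction is likely rather than stated: it follows the order of names in the titles, and arrays with the dyes swapped correlated positively.

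The alkaline cultures were wild type cells of strain DBY4741, growing in 50 ml of YPD at 28 °C, and KOH at 16 mM raised their medium to pH 8 for 10 min. Their controls received 16 mM KCl in place of KOH and stayed near pH 5.5. The low glucose cultures were wild type cells of strain DBY746. They were spun down, washed with water and resuspended in fresh YP with 0.05% glucose for 15 min, while their controls went into YP with 2% glucose. Strain, time and handling therefore differed together with the stress, and the 4 cannot be told apart in any difference given here. Both channels of an array hold the same strain, so the ratios give no check of the strain. The labels do not say whether arrays of a group came from separate cultures or are dye swaps of the same RNA, so p-values measure only the spread between these arrays.

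Yeast that runs short of glucose relieves glucose repression through the kinase Snf1, while the activity of protein kinase A falls. Genes for other sugars, respiration and stress defence then rise, and genes for ribosome formation fall. A sudden rise in outside pH collapses the proton gradient that drives nutrient uptake and lets calcium into the cell. Calcium activates the phosphatase calcineurin, which sends the transcription factor Crz1 to genes of ion pumps and cell wall enzymes. The Rim101 pathway and the phosphate, iron and copper genes are also known to respond to alkaline medium.

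Between 4825 and 5348 genes per alkaline array and 5370 to 5463 per low glucose array carried a value. A gene was tested where at least 3 alkaline arrays and both low glucose arrays gave one, which left 4825 genes. Low glucose arrays correlated with each other at a Pearson r of 0.953 across genes and alkaline arrays at 0.807 to 0.936. Arrays of different stresses correlated at 0.569 to 0.745. These are descriptions across genes, which are not independent replicates. Alkaline arrays 3 and 4 were the most alike (0.936), and for some genes named below they lay apart from arrays 1 and 2.

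Low glucose ratios were spread 1.65 times as widely as alkaline ratios by the median absolute deviation, and they followed coding length, which alkaline ratios hardly did. The Spearman rho with length was -0.45 and -0.41 on the low glucose arrays and -0.17 to 0.11 on the alkaline arrays. Each difference between the stresses was therefore tested in 4 forms: as deposited, with arrays scaled to one spread, with the length trend of each array removed, and with both. The choice to remove the length trend was made after the trend was seen. A difference past the threshold with the same sign in all of them is called here one that held in all 4 forms. Differences are alkaline pH minus low glucose on the log2 scale, with the SE of limma. Means of arrays are given ± SD, over 4 arrays at pH 8 and 2 at low glucose, or over the n shown, and the alkaline mean stands first. A result is called where the adjusted p of limma, after Benjamini-Hochberg over all genes tested, was under 0.05.

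At pH 8, 2725 genes (56.5% of those tested) were called, 1263 of them higher (26.2%) and 1462 lower (30.3%). At low glucose 3190 (66.1%) were called, 1667 higher (34.5%) and 1523 lower (31.6%). At least 2-fold, 366 genes rose (7.59%) and 298 fell (6.18%) at pH 8, and 752 rose (15.6%) and 791 fell (16.4%) at low glucose. The genes raised by both stresses numbered 938, which is 74.3% of those raised at pH 8 and 56.3% of those raised at low glucose. The genes lowered by both numbered 922, or 63.1% and 60.5% of the lowered genes. At least 2-fold, 278 rose under both, which is 76.0% of those at pH 8 and 37.0% of those at low glucose, and 222 fell, or 74.5% and 28.1%. Across genes the 2 mean responses correlated at an r of 0.714, and at 0.800 with the length trend removed (0.716 as deposited over the same 4553 genes).

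The stresses differed by a called amount in 2220 genes (46.0%), of which 1018 (21.1%) had the higher ratio at pH 8 and 1202 (24.9%) the higher ratio at low glucose. At least 2-fold, these were 532 (11.0%) and 350 (7.25%). Without low glucose array 1 the count was 1162, without low glucose array 2 it was 1042, and with consecutive arrays averaged and counted as 1 it was 719. The split by direction depended on the scale: 483 (10.0%) against 171 (3.54%) with arrays scaled, 1159 against 887 with arrays centred on their medians, and 729 (16.0%) against 585 (12.8%) of 1314 calls (28.9%) once the length trend was removed. Scaling alone left 654 calls (13.6%). With scaling and length removal together, 178 genes (3.91%) were higher at pH 8 and 95 (2.09%) higher at low glucose. A total of 183 genes (4.02%) held in all 4 forms, 137 (3.01%) with the higher ratio at pH 8 and 46 (1.01%) with the higher ratio at low glucose. They were picked by their difference on these same arrays, so the counts of overlap that follow are not separate support. Of the 183, 182 had arrays that did not overlap between the stresses, against 61.2% of all genes tested, and 154 stayed called whichever array was left out. The fewest, 160, stayed called without low glucose array 1, and 162 did so without low glucose array 2. Their median coding length was 1815 bp for the genes higher at pH 8 and 1188 bp for those higher at low glucose, against 1215 bp for all genes. Calls in the gene lists below are to be read beside the shares of all genes in this paragraph.

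Sorted by both tests, 836 genes (17.3%) responded alike: both responses were called in 1 direction, and the difference was not called with a 95% interval inside 1 log2 unit either way. Another 797 (16.5%) moved in 1 direction but by a called larger amount at low glucose, and 58 (1.20%) by a larger amount at pH 8. At low glucose alone 853 genes (17.7%) responded, which here means that the difference was called and that the pH 8 response was not, with its interval inside 1 log2 unit. At pH 8 alone 286 genes (5.93%) did so. In 143 genes (2.96%) both responses were called with opposite signs and the difference was called. The other genes fell short of these definitions. In 169 (3.50%) both responses were called and the interval of the difference was wider, in 403 (8.35%) and 327 (6.78%) the pH 8 or the low glucose response alone was called but not the difference, and in 33 (0.684%) and 7 (0.145%) the other response was too imprecise to bound. In 43 (0.891%) the difference alone was called and in 870 (18.0%) nothing was. All 6 of these classes were smaller without either low glucose array. Without array 1 they held 443 alike genes, 477 stronger at low glucose, 10 stronger at pH 8, 456 at low glucose alone, 78 at pH 8 alone and 70 opposite. Without low glucose array 2 the numbers were 434, 399, 9, 418, 67 and 76. The genes at pH 8 alone also dropped to 181 and 165 without alkaline array 3 or 4, the opposite genes to 87 and 74, and the genes stronger at pH 8 to 36 without alkaline array 4.

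**Figure D1:**
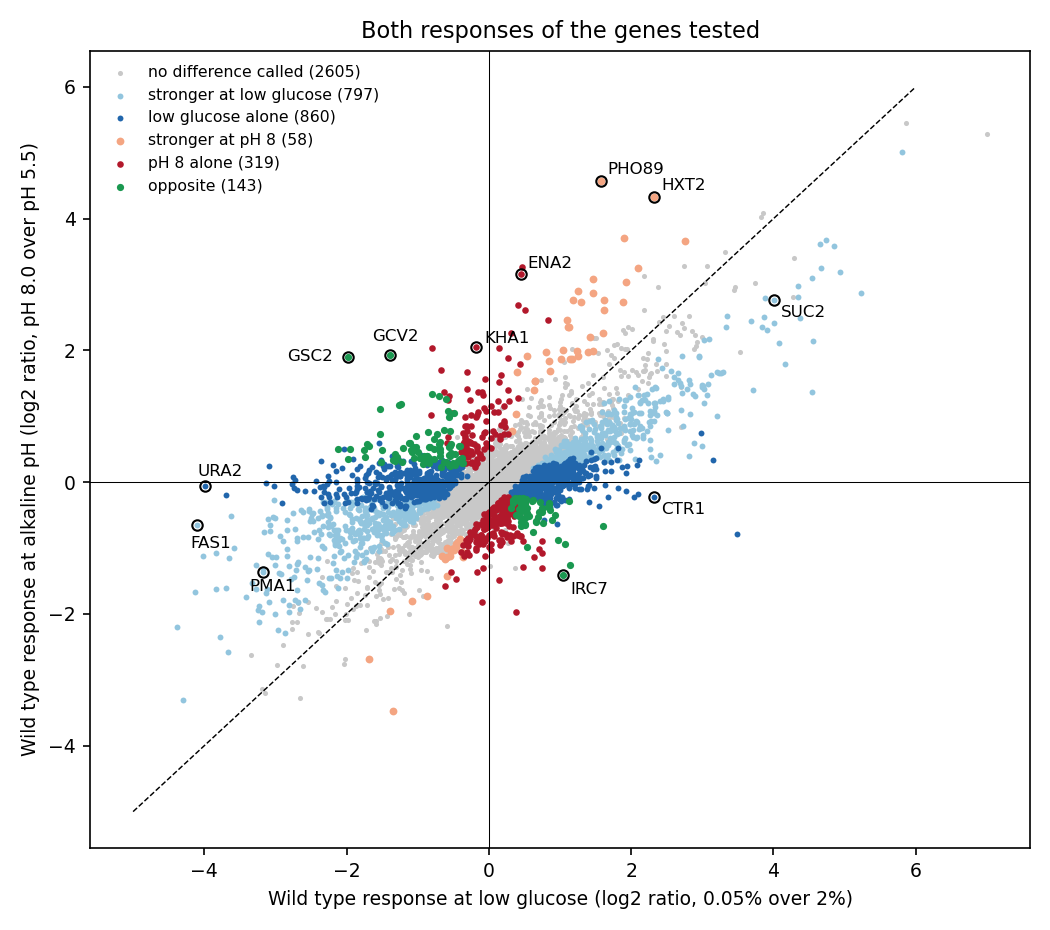
The wild type response of each gene tested at low glucose (horizontal, log2 ratio) is plotted against its response at alkaline pH (vertical, log2 ratio), coloured by response class with the number of genes in brackets, and the alone classes include genes whose other response could not be bounded. The dashed line marks equal responses: most genes lie along it at a shallower slope, GSC2 and GCV2 lie at upper left, CTR1 and IRC7 at lower right, and PHO89 and HXT2 far above the line.

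BOP2, TSL1, RCN2, HXT7 and MAL33 had the highest mean of both responses among the genes that counted as rising alike. HXT7, a high-affinity glucose transporter, gave log2 ratios of 2.83, 2.74 and 3.08 on the 3 alkaline arrays with a value and 3.29 and 3.59 on the low glucose arrays. Each of these arrays was high, and both low glucose arrays lay above the alkaline ones with a difference that was not called (adjusted p = 0.0521, limma). The near-identical HXT6 can share its signal, and its own difference was called as deposited, with the higher ratio at low glucose. That call was lost with arrays scaled (adjusted p = 0.451, limma) and with scaling and length removal together (adjusted p = 0.0828, limma). TSL1, a regulatory subunit of the trehalose synthase complex, averaged 3.49 ± 0.56 at pH 8 and 3.32 ± 0.10 at low glucose. BOP2, of unknown function, averaged 4.02 ± 0.36 and 3.83 ± 0.40. MAL33, an activator of maltose genes, averaged 3.02 ± 0.29 and 3.04 ± 0.24. NRG1, a repressor of glucose-repressed genes, rose by 2.02 and 1.92. TPS1, the synthase of trehalose 6-phosphate, rose by 2.51 and 2.45. These likenesses depended on the scale. With arrays scaled, the differences of HXT7, MAL33, TSL1, BOP2 and TPS1 were called higher at pH 8 (0.94, 1.31, 1.63, 1.87 and 1.15). With scaling and length removal together, those of MAL33, BOP2 and TPS1 still were (0.99, 1.36 and 0.85). With the length trend alone removed, those of HXT7 and TSL1 were called lower at pH 8 (-0.66 and -0.82). The difference of NRG1 was called in 1 alternative, the length trend removed on the wild type arrays alone (0.54). The difference of HXT7 was also called without alkaline array 4 (adjusted p = 0.0336, limma). Genes counted as alike numbered 3 of 6 in the trehalose list, 2 of 14 in the glycogen list and 2 of 9 among hexose transporters and kinases active when glucose is low, beside 17.3% of all genes.

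ALB1, ENP1, RSA4 and CIC1, all of ribosome assembly, had the lowest mean of both responses among the genes that counted as falling alike. ENP1, needed for 40S assembly, gave -3.02, -3.05, -3.13 and -3.39 at pH 8 and -2.85 and -3.52 at low glucose. ALB1, a shuttling factor of 60S assembly, averaged -3.20 ± 0.30 and -3.15 ± 0.33. CIC1 and RSA4, both 60S assembly factors, averaged -2.47 ± 0.27 and -2.78 ± 0.23 at pH 8 and -2.89 ± 0.04 and -2.98 ± 0.48 at low glucose. With arrays scaled, the differences of ENP1, ALB1 and RSA4 were called lower at pH 8 (-1.20, -1.28 and -0.94), and with array weights that of CIC1 was called higher (0.57). Of 121 cytosolic ribosomal protein genes tested, 117 fell at pH 8 and 85 at low glucose, with median log2 ratios of -0.94 and -0.70. Their difference was called lower at pH 8 in 34 and higher in 1, beside 24.9% and 21.1% of all genes. After removal of the length trend it was called lower in 1 and higher in 15, beside 12.8% and 16.0%. The median difference went from -0.22 to 0.16 with that removal. With arrays scaled, 17 were called lower and 0 higher, beside 3.54% and 10.0%. Many ribosomal protein genes come in near-identical pairs that may share signal.

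The targets of calcineurin and Crz1 responded more at pH 8 than at low glucose. Of 13 targets tested, 12 rose at pH 8, while at low glucose 7 rose and 5 fell. In 10 the ratio was called higher at pH 8 and in 0 lower, and 9 held in all 4 forms, where the share of all genes was 3.01%. The median difference of the list was 1.65, and 1.36 with the length trend removed, beside a median of -0.14 over all genes as deposited.

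PHO89, a sodium-phosphate cotransporter of the plasma membrane, gave log2 ratios of 3.86, 4.30, 5.01 and 5.12 at pH 8 and 1.52 and 1.62 at low glucose. It rose on every array, and the lowest alkaline array lay well above both low glucose arrays. The difference was 3.002 ± 0.47 (adjusted p = 0.000583, limma). ENA2, a sodium export ATPase, gave 3.09, 2.44, 3.60 and 3.48 against 0.56 and 0.33, a difference of 2.71 ± 0.48 (adjusted p = 0.00092, limma). All 4 alkaline arrays were high and both low glucose arrays were near 0, although the call was lost (adjusted p = 0.0554, limma) when consecutive arrays were averaged and counted as 1. CMK2, a calmodulin-dependent kinase, gave 2.84, 2.92, 4.50 and 4.58 against 1.82 and 1.97. Arrays 3 and 4 were higher than arrays 1 and 2, and no alkaline array overlapped the low glucose arrays. Its difference of 1.81 ± 0.46 (adjusted p = 0.00747, limma) was no longer called without low glucose array 1, without low glucose array 2, or with consecutive arrays averaged, with a highest adjusted p of 0.12 by limma.

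MEP1, an ammonium permease, gave 2.28, 2.96, 3.05 and 3.18 at pH 8 and 1.37 and 1.57 at low glucose, with a difference of 1.40 ± 0.27. YPS1, a cell surface aspartyl protease, averaged 2.91 ± 0.32 and 1.26 ± 0.001. YPS1 and PLB3, a phospholipase B, were picked from the list after their values were seen. Both held in all 4 forms.

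Within the same list, 4 targets moved in opposite directions under the 2 stresses as deposited: GSC2, PMC1, PMR1 and PLB3. Low glucose ratios fell with coding length, with medians of -1.09 from 3000 to 4000 bp and -1.83 over 5000 bp. With the length trend removed, the median low glucose ratio of the list went from 1.05 to 1.43. With the trend removed, 84 genes of all those tested counted as opposite, and whether these 4 were among them is not reported here. GSC2, a stress-induced catalytic subunit of glucan synthase, gave 1.36, 0.67, 2.94 and 2.61 at pH 8 and -1.89 and -2.08 at low glucose. All alkaline arrays rose, arrays 3 and 4 more than arrays 1 and 2, and both low glucose arrays fell. The difference was 3.88 ± 0.52 (adjusted p = 0.00031, limma). PMC1, the vacuolar calcium ATPase, gave 1.10, 1.05, 1.25 and 1.33 against -1.21 and -1.25, and PMR1, the Golgi pump for calcium and manganese, gave 0.54, 0.48, 0.61 and 0.60 against -1.69 and -1.69. The arrays of each stress lay close together for both pumps and far from those of the other stress. Their differences were 2.41 ± 0.25 and 2.24 ± 0.15 (adjusted p = 2.91e-05 and 2.15e-06, limma). PLB3 averaged 1.08 ± 0.15 at pH 8 and -0.57 ± 0.38 at low glucose.

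RCN1 and RCN2, feedback regulators of calcineurin, rose under both stresses. RCN1 gave 1.00, 0.80, 1.25 and 1.19 at pH 8 and 1.13 and 0.98 at low glucose. RCN2 gave 2.94, 3.16, 3.49 and 3.51 at pH 8 and 3.11 and 3.04 at low glucose. For both genes all arrays were raised, the ranges of the stresses overlapped, and the responses counted as alike as deposited. With arrays scaled the difference of RCN2 was called higher at pH 8 (1.56, adjusted p = 0.0315, limma), as it was with scaling and length removal together (1.50, adjusted p = 0.0461, limma). CRZ1 itself had a value on a single wild type array, 0.29 at low glucose. In the list of calcium channels, pumps and the calcineurin pathway, 6 of 14 genes tested responded alike, beside 17.3% of all genes. There 4 had a called higher ratio at pH 8 and 1 a called lower one, beside 21.1% and 24.9%. All 4 forms held for 3, each with the higher ratio at pH 8.

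**Figure D2:**
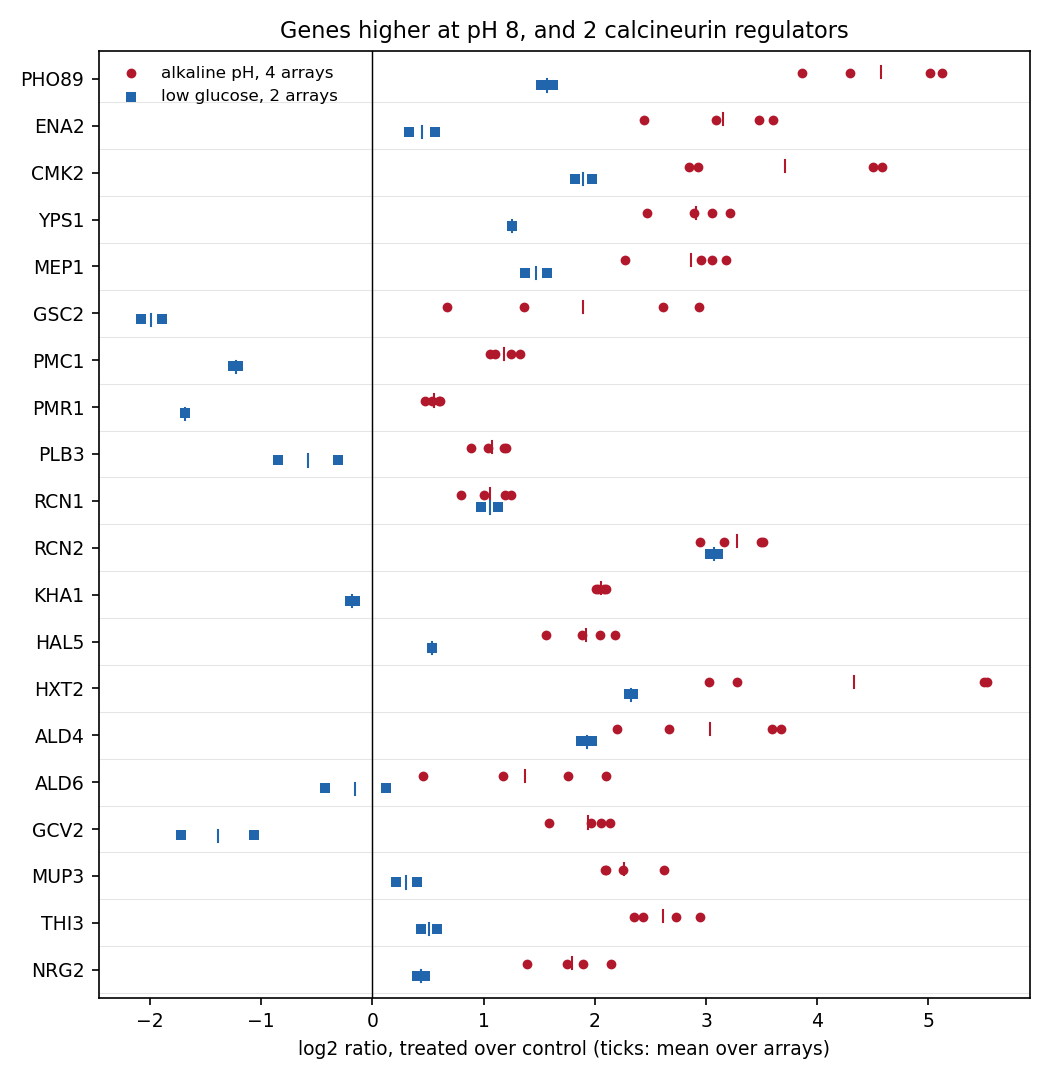
Log2 ratios of 20 genes (rows) are shown on each of the 4 alkaline arrays (circles) and 2 low glucose arrays (squares), 18 with the higher ratio at pH 8 and the calcineurin regulators RCN1 and RCN2. For the 18 the circles lie to the right of the squares, with GSC2, PMC1, PMR1, PLB3, KHA1 and GCV2 on opposite sides of 0. The symbols of RCN1 and RCN2 lie together.

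Other transport genes also separated the stresses. KHA1, a putative potassium-proton antiporter, gave 2.09, 2.01, 2.03 and 2.10 at pH 8 and -0.16 and -0.20 at low glucose. The alkaline arrays agreed closely and all rose, to 4.16-fold on average, while both low glucose arrays lay just under 0. The difference was 2.24 ± 0.15 (adjusted p = 1.63e-06, limma). HAL5, a kinase that acts on potassium uptake, averaged 1.92 ± 0.27 against 0.54 ± 0.002, a difference that held in all 4 forms but not with consecutive arrays averaged (adjusted p = 0.0638, limma). PMA1, the plasma membrane proton pump, gave -1.26, -1.20, -1.48 and -1.49 at pH 8 and -3.21 and -3.13 at low glucose. It fell on every array and further at low glucose, by a difference of 1.82 ± 0.33 that was no longer called with arrays scaled (adjusted p = 0.315, limma). In the list of the proton pump and potassium transport, 5 of 7 genes had a called higher ratio at pH 8 and 0 a lower one. Once the length trend was removed these counts were 3 and 1, over genes with a median coding length of 2622 bp.

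HXT2, a high-affinity glucose transporter, rose further at pH 8 than at low glucose, although low glucose is its textbook inducer. Its ratios were 3.03, 3.28, 5.50 and 5.53 at pH 8 and 2.31 and 2.35 at low glucose. Alkaline arrays 3 and 4 were far above arrays 1 and 2, and all 4 lay above the low glucose arrays. The difference of 2.01 ± 0.63 (adjusted p = 0.0214, limma) was lost in 5 of the alternatives, among them the fits without low glucose array 1 and without array 2, with a highest adjusted p of 0.171 by limma. In the list of hexose uptake and phosphorylation at low glucose, 8 of 9 genes tested rose at pH 8 and 8 at low glucose. There 3 had a called higher ratio at low glucose. Only HXT2 had one at pH 8. With arrays scaled the direction of the list turned: 4 were called higher at pH 8 and 0 at low glucose, and the median difference went from -0.52 to 0.89.

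Some aldehyde and lactate enzymes also had the higher ratio at pH 8. ALD4, the mitochondrial aldehyde dehydrogenase, gave 2.20, 2.67, 3.59 and 3.67 at pH 8 and 1.88 and 1.98 at low glucose. ALD6, the cytosolic form, averaged 1.37 ± 0.72 against -0.15 ± 0.39. DLD1, a mitochondrial lactate dehydrogenase, averaged 1.53 ± 0.16 against 0.65 ± 0.16. All 3 belong to the list of gluconeogenesis and of growth on ethanol, acetate or lactate, held in all 4 forms, and were picked after their values were seen. None kept its call with consecutive arrays averaged (adjusted p = 0.173, 0.1 and 0.0691 for ALD4, ALD6 and DLD1, limma). ALD4 also lost it without any one of alkaline arrays 3 and 4 and low glucose arrays 1 and 2 (highest adjusted p = 0.163, limma), ALD6 without low glucose array 2 (0.0563) and DLD1 without low glucose array 1 (0.0894). In that list of 13 genes tested, the difference was called higher at pH 8 in 5 and lower in 6. With arrays scaled these were 4 and 2, and the median difference turned from -0.96 to 0.30.

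GCV2, a subunit of the glycine decarboxylase of mitochondria, gave 1.97, 1.59, 2.06 and 2.14 at pH 8 and -1.06 and -1.72 at low glucose. Every alkaline array rose and both low glucose arrays fell, a difference of 3.33 ± 0.24 (adjusted p = 7.24e-06, limma). MTD1, an enzyme of the one-carbon folate pathway, averaged 2.04 ± 0.24 against 0.14 ± 0.14, a difference lost in 8 alternatives, among them those without alkaline array 1 or 2 and without either low glucose array (highest adjusted p = 0.198, limma). MUP3, a methionine permease, averaged 2.27 ± 0.25 against 0.31 ± 0.13, and THI3, a regulator of thiamine synthesis genes, averaged 2.62 ± 0.28 against 0.51 ± 0.10. NRG2, a repressor related to NRG1, averaged 1.80 ± 0.31 against 0.44 ± 0.05, in contrast to the like rise of NRG1. MUP3, THI3 and NRG2 held in all 4 forms, but THI3 and NRG2 not with consecutive arrays averaged (adjusted p = 0.0677 and 0.0682, limma). In the list of sulfate assimilation and methionine, 10 of 24 genes rose at pH 8 against 2 at low glucose, and 10 differences were called higher at pH 8 against 3 lower, beside 21.1% and 24.9% of all genes. With arrays scaled these were 3 and 1, and 1 and 1 held in all 4 forms.

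Among the genes that fell at pH 8 alone, SLX9, a factor of pre-rRNA export and processing, gave -1.47, -1.90, -1.19 and -1.35 at pH 8 and 0.46 and -0.18 at low glucose. ESF2, also of pre-rRNA processing, averaged -1.30 ± 0.26 against -0.08 ± 0.39, and its difference was not called without low glucose array 1, with consecutive arrays averaged, or with the length trend removed and arrays scaled (highest adjusted p = 0.107, limma). The genes lowered at pH 8 alone numbered 201, and the 85 raised at pH 8 alone were fewer. Median coding length was 758 bp among the lowered and 1950 bp among the raised genes, and 8 and 16 of them held in all 4 forms.

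Of the 143 genes with opposite changes, 83 rose at pH 8 and fell at low glucose, and 60 did the reverse. The difference held in all 4 forms for 30 and 12 of them, which does not test the opposite signs. The class itself held 69 genes with arrays scaled, 84 with the length trend removed and 38 with both. Median coding length was 2673 bp in the first set and 714 bp in the reverse set. Beside the calcium pumps, the first set held CLN3, a G1 cyclin, at 0.20, 0.44, 0.26 and 0.42 against -1.33 and -1.35. The pH 8 rise was small but present on every array, and the low glucose fall was larger. CAN1, the arginine permease, averaged 0.30 ± 0.20 against -1.51 ± 0.02, and RPN2, a proteasome base subunit, 0.38 ± 0.05 against -1.29 ± 0.03. ALD5, a mitochondrial aldehyde dehydrogenase, averaged 1.33 ± 0.67 against -0.80 ± 0.20, unlike ALD4, which rose under both. CLN3, CAN1, RPN2 and ALD5 held in all 4 forms, ALD5 not with consecutive arrays averaged (adjusted p = 0.0585, limma).

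The reverse set was led by IRC7, a beta-lyase that acts on cysteine. Its ratios were -1.19, -1.35, -1.57 and -1.49 at pH 8 and 1.15 and 0.95 at low glucose. All alkaline arrays fell and both low glucose arrays rose, a difference of -2.45 ± 0.20 (adjusted p = 6.14e-06, limma). ZEO1, an eisosome-associated protein, averaged -1.26 ± 0.21 against 1.14 ± 0.07, IMA3, an isomaltase, -0.67 ± 0.35 against 1.60 ± 0.58, and HXT11, a hexose transporter of the HXT family, -0.76 ± 0.10 against 0.62 ± 0.20. FRE1, a reductase of iron and copper at the cell surface, averaged -0.38 ± 0.18 against 0.83 ± 0.01. FBP1, the fructose bisphosphatase of gluconeogenesis, averaged -0.64 ± 0.37 against 0.51 ± 0.23, but its call was lost without low glucose array 1, with consecutive arrays averaged, and with the length trend removed and arrays scaled (highest adjusted p = 0.0672, limma). IRC7, ZEO1, IMA3, HXT11 and FRE1 held in all 4 forms.

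CTR1, the high-affinity copper transporter, gave -0.40, -0.09, -0.19 and -0.25 at pH 8 and 2.20 and 2.45 at low glucose. It rose to 5.02-fold on average over both low glucose arrays and lay slightly below 0 on all alkaline arrays. The difference was -2.56 ± 0.18 (adjusted p = 2.15e-06, limma) and held in all 4 forms. Of 4 copper genes tested, 4 rose at low glucose and 2 at pH 8. Of 23 iron genes tested, 8 rose at low glucose and 4 at pH 8, beside 34.5% and 26.2% of all genes. There 3 differences were called, all with the higher ratio at low glucose, and 1 held in all 4 forms.

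Sucrose and maltose genes rose under both stresses and further at low glucose. The maltase genes MAL12 and MAL32, which are near-identical and may share signal, had low alkaline ratios. MAL12 gave 0.35, 0.35, 0.58 and 0.38 at pH 8 and 2.15 and 2.67 at low glucose. MAL32 gave 0.76, 0.79 and 0.69 on the 3 alkaline arrays with a value and 2.09 and 2.94 at low glucose. Every array of both genes rose, the low glucose arrays more than any alkaline array. The differences of -1.99 ± 0.17 and -1.72 ± 0.21 held in all 4 forms. SUC2, the invertase, gave 2.46, 3.12, 2.53 and 2.92 against 4.03 and 3.98, a difference of -1.24 ± 0.22 as deposited. With arrays scaled the difference was 0.43 and not called (adjusted p = 0.244, limma). In the list of sucrose and maltose use, 6 of 8 genes rose at pH 8 and 7 at low glucose, with 5 called differences, all higher at low glucose. With arrays scaled, 2 were called higher at low glucose and 1 at pH 8, and the median difference turned from -0.58 to 0.05. HXK1, a hexokinase, averaged 3.62 ± 0.15 against 4.66 ± 0.01, a difference of -1.04 ± 0.21. With arrays scaled that difference was 0.92 and likewise not called (adjusted p = 0.108, limma).

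Several genes with mean log2 ratios between -0.25 and 0.60 at pH 8 rose strongly at low glucose. DSF1, a putative mannitol dehydrogenase, gave 0.65, 0.51, -0.09 and 0.25 at pH 8 and 3.37 and 2.93 at low glucose. XYL2, a xylitol dehydrogenase, averaged -0.18 ± 0.18 against 2.09 ± 0.32, and REE1, a cytoplasmic protein linked to enolase, 0.39 ± 0.27 against 2.82 ± 0.23. MLS1, malate synthase of the glyoxylate cycle, averaged 0.60 ± 0.44 against 2.88 ± 0.33. RTN2, a reticulon of the endoplasmic reticulum, averaged 0.32 ± 0.12 against 2.35 ± 0.14, and ASR1, a RING protein, -0.23 ± 0.39 against 2.04 ± 0.12. CRC1, the carnitine carrier of mitochondria, averaged -0.25 ± 0.30 against 1.12 ± 0.03. These 7 genes held in all 4 forms. HMRA2, a gene of the silent mating locus, gave -0.17, -0.15, 0.05 and -0.28 against 1.92 and 1.94 and held too, but its sequence is shared in part with other mating type genes.

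**Figure D3:**
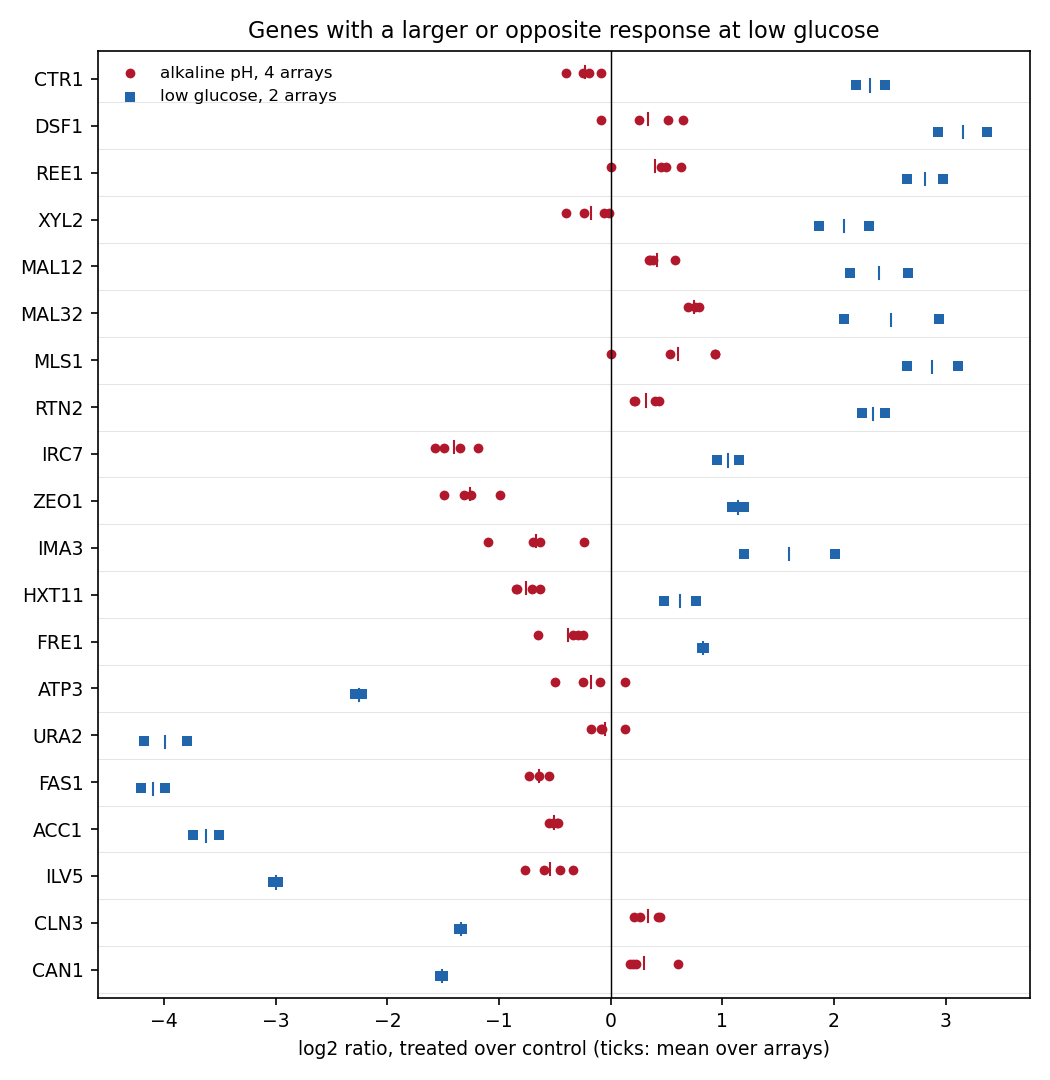
Log2 ratios of the genes in the rows are shown on each of the 4 alkaline arrays (circles) and 2 low glucose arrays (squares). The upper rows show genes with the higher ratio at low glucose, where the squares lie to the right. The lower rows show genes with the lower ratio at low glucose, where the squares lie to the left. The circles of URA2 lie near 0, and those of CLN3 and CAN1 lie above 0.

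Respiration rose mainly at low glucose. Of 31 genes of the respiratory chain and ATP synthase, 27 rose and 3 fell at low glucose, against 14 and 0 at pH 8. Median log2 ratios were 1.40 and 0.09. The difference was called higher at low glucose in 27 genes and higher at pH 8 in 2, beside 24.9% and 21.1% of all genes. After length removal these were 18 and 1, and 3 and 1 held in all 4 forms. The median coding length of the list was 447 bp, and the part of length in the result was not tested beyond that. ATP20, a subunit of ATP synthase, averaged -0.30 ± 0.18 against 1.40 ± 0.40 and was one that held. ATP3, the gamma subunit of the same enzyme, went the other way, at -0.25, -0.50, 0.13 and -0.10 at pH 8 and -2.22 and -2.29 at low glucose. Its alkaline arrays lay on either side of 0, both low glucose arrays fell, and its difference of 2.08 ± 0.23 held in all 4 forms.

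Mitochondrial ribosomal proteins were like the respiratory genes before, but not after, the length trend was removed. Histones kept a part of that split. Of 58 mitochondrial ribosomal protein genes, 48 rose at low glucose and 27 at pH 8. The difference was called higher at low glucose in 38 as deposited and in 5 with the trend removed, beside 24.9% and 12.8% of all genes. Of 10 histone genes, 8 rose at low glucose and 2 at pH 8. There 9 differences were called as deposited and 4 with the trend removed, each with the higher ratio at low glucose. None of the histone or mitochondrial ribosomal differences held in all 4 forms. Their median coding lengths were 399 bp and 657 bp.

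General stress genes rose under both. Of 31 tested, 21 rose at pH 8 and 24 at low glucose, with medians of 1.41 and 2.39. The difference was called higher at low glucose in 14 and at pH 8 in 4, beside 24.9% and 21.1% of all genes. With arrays scaled these were 2 and 3, and the median difference, alkaline minus low glucose, turned from -0.71 to 0.26. HSP12, a membrane stress protein, averaged 2.49 ± 0.40 against 4.38 ± 0.44, and HSP30, a stress protein of the plasma membrane, -0.73 ± 0.66 (n = 3) against 3.48 ± 0.22. JEN1, the lactate permease, averaged 2.14 ± 0.77 against 4.56 ± 0.04, and OM45, a protein of the outer mitochondrial membrane, 1.40 ± 0.41 against 3.72 ± 0.09. With arrays scaled none of HSP12, HSP30, JEN1 and OM45 kept its call, and HSP12 lost it without low glucose array 2 as well (adjusted p = 0.152, limma). DDR48, a stress protein, went the other way at 1.87 ± 0.23 against 1.01 ± 0.06, held in all 4 forms though not with consecutive arrays averaged, and was picked after its values were seen.

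Long genes fell at low glucose. Among the 47 genes tested with a coding length over 5000 bp, the median log2 ratio was -1.83 at low glucose, where 43 (91.5%) were called lower, against 31.6% of all genes. At pH 8 their median was -0.15 and 19 (40.4%) were called lower. Among the 423 genes of up to 500 bp the medians were 0.58 at low glucose and -0.02 at pH 8. The trend was present on both low glucose wild type arrays, which carry opposite dyes, and was weaker on the snf1 low glucose arrays, with rho of -0.09 and -0.02. What gave rise to it was not tested. Of the 47 longest genes, 9 held in all 4 forms.

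**Figure D4:**
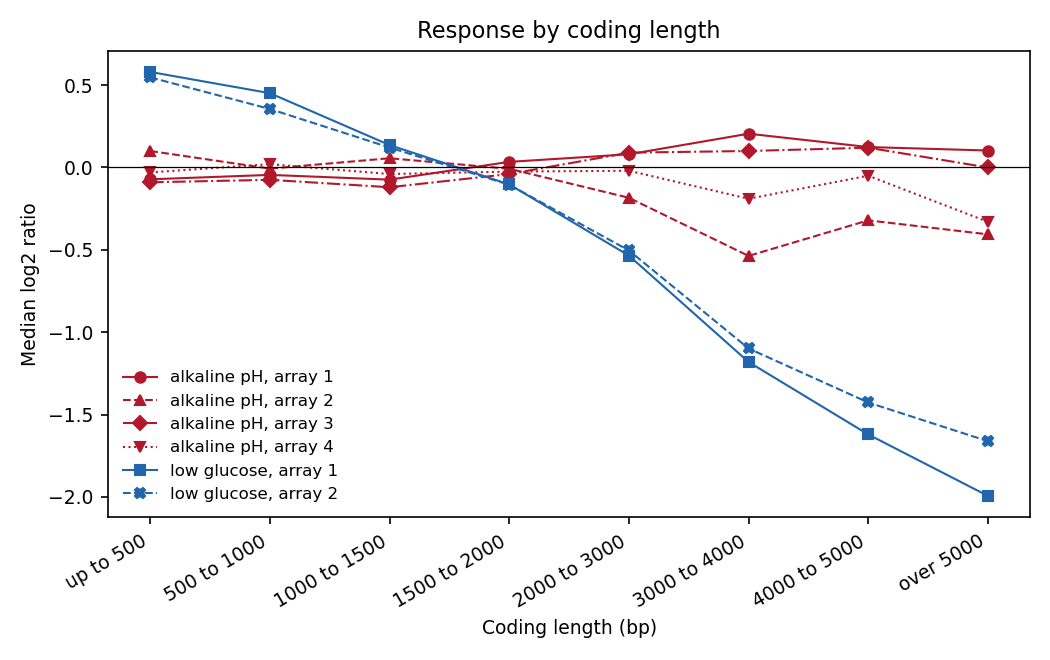
The median log2 ratio of the genes tested in each class of coding length (horizontal, bp) is drawn for each of the 4 alkaline arrays and 2 low glucose arrays. The low glucose lines fall from 0.58 and 0.55 for the shortest genes to -1.99 and -1.66 for the longest, while the alkaline lines stay between -0.54 and 0.20.

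Some genes lay beyond that trend. URA2, the first enzyme of pyrimidine synthesis, gave -0.08, -0.09, 0.13 and -0.18 at pH 8 and -4.18 and -3.80 at low glucose. It fell 15.9-fold on average over both low glucose arrays and lay near 0 on all alkaline arrays. The difference was 3.94 ± 0.26 (adjusted p = 1.63e-06, limma), and 2.05 with the length trend removed. FAS1, the beta subunit of fatty acid synthase, averaged -0.64 ± 0.09 (n = 3) against -4.10 ± 0.16, and ACC1, acetyl-CoA carboxylase, -0.51 ± 0.04 against -3.62 ± 0.16. GCN1, which relays amino acid starvation to the kinase Gcn2, averaged -0.19 ± 0.20 against -3.69 ± 0.46, and BLM10, a proteasome activator, 0.29 ± 0.22 (n = 3) against -3.09 ± 0.03. With the length trend removed the differences of FAS1, ACC1, GCN1 and BLM10 were 1.72, 1.22, 1.38 and 1.38, and all held in the other forms too.

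Amino acid synthesis fell further at low glucose. Of 50 genes tested, 34 fell and 0 rose at low glucose, against 20 and 9 at pH 8. The difference was called higher at pH 8 in 26 and lower in 1, and with the length trend removed in 30 and 1. Over all genes the shares were 21.1% and 24.9%, and 16.0% and 12.8% with the trend removed. ILV5, of branched-chain amino acid synthesis, gave -0.77, -0.34, -0.60 and -0.45 at pH 8 and -3.02 and -2.98 at low glucose. All arrays fell, both low glucose arrays far below the alkaline ones. ARO1, which carries several steps of aromatic amino acid synthesis, averaged -0.09 ± 0.16 against -2.74 ± 0.21. ILV5 and ARO1 were among 7 of the list that held in all 4 forms.

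Purine synthesis showed a similar split at gene level. Of 22 genes, 8 rose and 9 fell at pH 8, while 1 rose and 15 fell at low glucose, with medians of 0.001 and -1.08. The difference was called higher at pH 8 in 16 as deposited and in 15 with the length trend removed, and in 0 lower. Of all genes, 21.1% and 16.0% were called higher at pH 8 in these forms. None of the 22 purine genes held in all 4 forms. ADE17, of the last steps of the pathway, gave 1.50, 1.52, 0.93 and 0.74 at pH 8 and -1.21 and -1.31 at low glucose, a difference of 2.44 ± 0.55 that was not called with arrays scaled.

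Translation genes fell under both stresses and further at low glucose. Of 48 tRNA synthetase and translation factor genes, 44 fell at pH 8 and 43 at low glucose, with medians of -0.53 and -1.34. The difference was called higher at pH 8 in 32 and lower in 1, beside 21.1% and 24.9% of all genes. With arrays scaled these were 13 and 0, beside 10.0% and 3.54%. With scaling and length removal together they were 6 and 2, beside 3.91% and 2.09%. In all 4 forms 6 held, each with the higher ratio at pH 8, beside 3.01% of all genes. TIF4631, a scaffold of translation initiation, averaged -0.65 ± 0.11 against -3.08 ± 0.21. RPG1 and NIP1, both subunits of the initiation factor eIF3, averaged -0.57 ± 0.16 and -0.81 ± 0.13 at pH 8 and -2.84 ± 0.13 and -2.94 ± 0.13 at low glucose. CDC60, the leucyl-tRNA synthetase, averaged -0.52 ± 0.25 against -3.04 ± 0.21.

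Ribosome assembly genes fell in nearly all cases under both stresses. Of 50 genes of the small subunit processome and 40S assembly, 47 fell at pH 8 and 45 at low glucose, with medians of -1.28 and -2.10. Of 58 genes of 60S assembly, 55 and 54 fell, with medians of -1.34 and -1.80. The fall was called deeper at low glucose in 23 and 23 genes, and in 12 and 17 with the length trend removed. Of all genes, 21.1% and 16.0% were called higher at pH 8 in these forms. With arrays scaled the deeper fall at low glucose was mostly lost. There 2 and 1 genes were called deeper at low glucose and 4 and 3 at pH 8, beside 10.0% and 3.54% of all genes. Median differences were then near 0, at -0.07 and -0.12, against 0.54 and 0.55 as deposited. UTP22, of the small subunit processome, averaged -0.99 ± 0.37 against -3.59 ± 0.27 and held in all 4 forms. No gene of 60S assembly did.

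Of 26 sterol synthesis genes, 18 fell at low glucose and 12 at pH 8. The difference was called higher at pH 8 in 13 as deposited, in 3 with arrays scaled, and in 0 in all 4 forms. Over all genes these shares were 21.1%, 10.0% and 3.01%. Of 20 genes of fatty acid and phospholipid synthesis, 12 and 10 fell, 10 differences were called higher at pH 8, and 3 held in all 4 forms. These were ACC1, FAS1 and CHO2, a methyltransferase of phosphatidylcholine synthesis, which averaged -0.17 ± 0.32 at pH 8 against -2.15 ± 0.11 at low glucose.

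**Figure D5:**
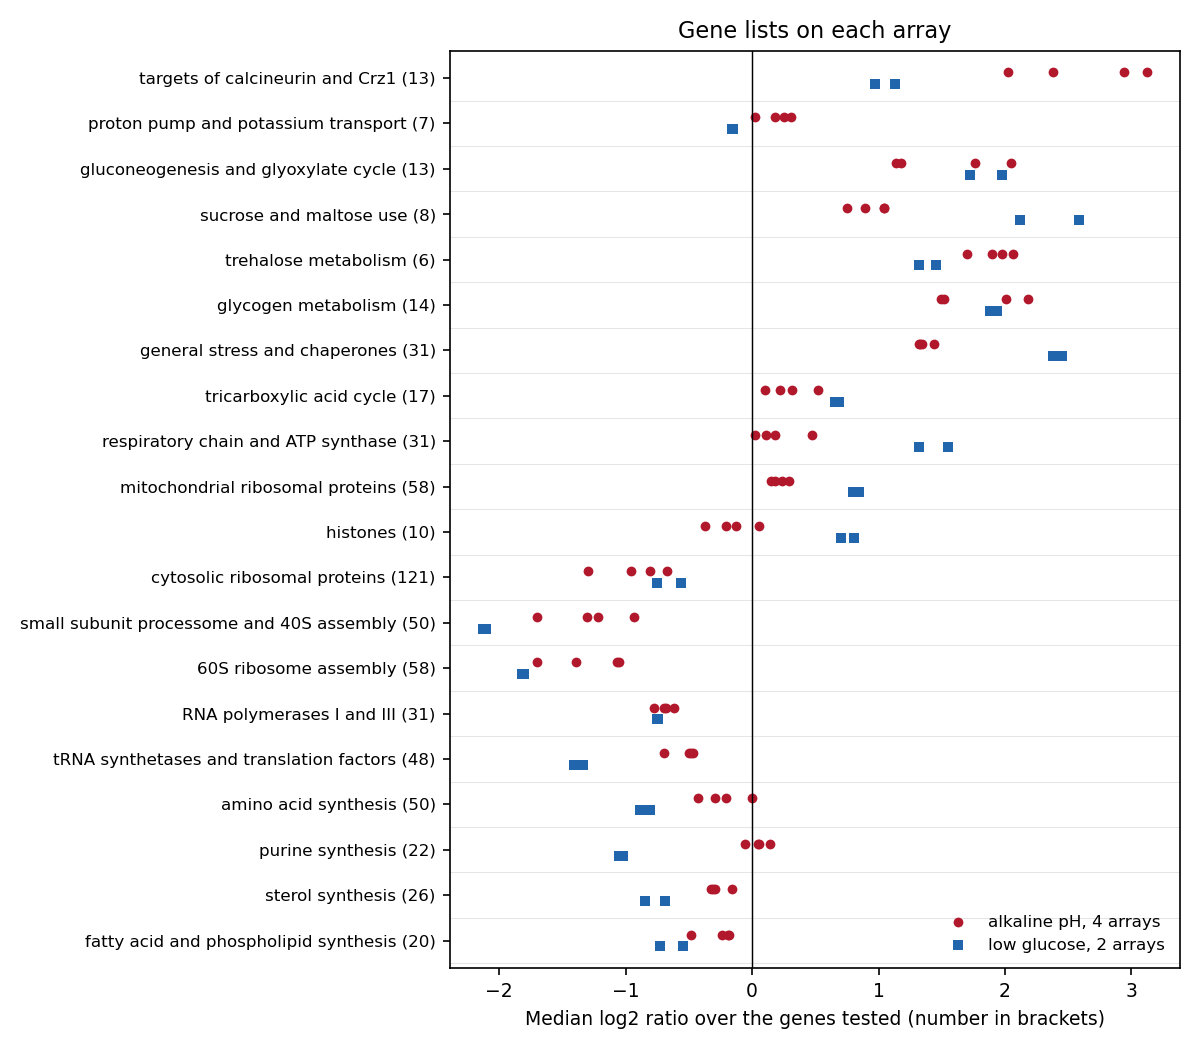
The median log2 ratio of each gene list in the rows is shown on each of the 4 alkaline arrays (circles) and 2 low glucose arrays (squares). For the calcineurin and Crz1 targets the circles lie to the right of the squares, while for the respiratory chain and ATP synthase the squares lie to the right of the circles and for tRNA synthetases and translation factors to the left.

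In the list of glucose sensing, repression and derepression, 8 of 21 genes had a called higher ratio at pH 8 and 5 a higher one at low glucose, and 2 held in all 4 forms, beside 4.02% of all genes. These were NRG2 and REG2, a regulatory subunit of the phosphatase Glc7. REG2 averaged 0.19 ± 0.35 against -1.10 ± 0.19, a difference not called without low glucose array 2 (adjusted p = 0.0582, limma). In the Ras and protein kinase A list of 19, the counts were 7 and 5 as deposited and 3 and 5 with the length trend removed. Over all genes the shares were 21.1% and 24.9% as deposited, and 16.0% and 12.8% with the trend removed. IRA1 and IRA2, which switch Ras off, and CYR1, the adenylate cyclase, have long coding regions. Their differences as deposited were 2.46 ± 0.18, 2.34 ± 0.24 and 1.61 ± 0.17. Without the length trend they were 0.16, 0.04 and -0.17, none of them called, and the last had the opposite sign. SCH9, a kinase of nutrient signalling, averaged -0.40 ± 0.17 against -2.27 ± 0.18 and held in all 4 forms.

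In the Rim101 list of 8 genes tested, 5 rose at pH 8 and 5 at low glucose, beside 26.2% and 34.5% of all genes. Differences were called in 1 with the higher ratio at pH 8 and 2 with the higher ratio at low glucose, beside 21.1% and 24.9%. None of the list held in all 4 forms. RIM101, the transcription factor of the pathway, rose at pH 8 alone, at 0.73 ± 0.24 against 0.27 ± 0.11, but its difference of 0.46 ± 0.18 (adjusted p = 0.0495, limma) was lost in 14 of 20 alternatives, among them those without alkaline array 2, 3 or 4 and without either low glucose array (highest adjusted p = 0.443). In the phosphate list of 18, 5 rose at pH 8 and 7 at low glucose, close to the 26.2% and 34.5% of all genes. The differences that held in all 4 forms were PHO89 and PHO91, a vacuolar phosphate transporter at 0.01 ± 0.23 against -1.85 ± 0.17.

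Some genes of both responses could not be tested. ENA1, the main sodium ATPase gene, gave 2.30, 1.84, 6.53 and 4.64 at pH 8 and 1.71 on 1 low glucose array. Its alkaline arrays all rose, arrays 3 and 4 far more than arrays 1 and 2, and 2 of the 4 lay close to the single low glucose value. ENA1 and ENA2 are near-identical and may share signal. ICL1, isocitrate lyase of the glyoxylate cycle, gave 0.53, 0.42, 0.56 and 0.39 at pH 8 and 2.26 on 1 low glucose array. PHO84, the high-affinity phosphate transporter, had 1 value, 1.18 at low glucose. ADH2, the glucose-repressed alcohol dehydrogenase, had values of -0.33 and 0.001 on 2 alkaline arrays. In all, 938 genes with a wild type value went untested, 400 of them with both low glucose values and 154 with at least 3 alkaline values.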

How the data were processed

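Values were the deposited log2 ratios of the series, with the base and the direction taken as stated above. Per the labels' protocols, 8 µg of total RNA was labelled indirectly through dUTP with oligo(dT) priming, and spots were dropped where smaller than 120 µm or dimmer than 100 fluorescence units in both dyes. How the ratios were normalized is not given in these sources. Medians of the wild type arrays lay between -0.05 and 0.07.

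A linear model with 4 group means and a dye term was fitted to the 12 arrays (lmFit and eBayes of limma 3.58.1, R 4.3.3). Each wild type mean was tested against 0, and the difference of the 2 means directly, two-sided, with 5.23 prior degrees of freedom. No gene was called for dye. Scaling divided each centred array by its median absolute deviation. The length trend was a loess curve of span 0.5 on log10 coding length from the R64 annotation, available for 4553 genes, 97.1% of which had a length divisible by 3. Steps were tested on simulated data. Summaries and figures used Python 3.11.15, pandas 2.3.3 and matplotlib 3.10.9.

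Of the 6212 deposited rows, 5639 matched an R64 locus tag and 5763 held a wild type value. Genes were named by a rule: the called differences of largest size in each direction, the largest of each response class, up to 4 members per list and a preset group. ALD4, ALD6, DDR48, DLD1, PLB3 and YPS1 fall outside it. The comparison, the 44 gene lists and the rule were chosen with earlier results of these data known, so counts over a list are descriptions. No sequences are shown, and probe sequences were not used here.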

Additional observations from a re-analysis of the deposited data

Results flagged for a closer look

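The 82 results examined were named genes with a value on all 4 alkaline arrays and the rho of these arrays with coding length. Of these, 3 genes had 1 array far from the other 3, where chance gives about 1 in 20. The gap to the nearest array was 0.890 of the whole range for BOP2, whose alkaline log2 ratios were 4.55, 3.89, 3.82 and 3.81. For CAN1 the gap was 0.860 of the range, at 0.23, 0.17, 0.60 and 0.20, and for MAL12 it was 0.858, at 0.35, 0.35, 0.58 and 0.38. BOP2 counted as alike under both stresses as deposited, but its difference was called higher at pH 8 with arrays scaled (1.87) and with scaling and length removal together (1.36). The differences of CAN1 and MAL12 kept their side of the threshold whichever array was left out.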

How the results depend on the processing

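Of the 87 named genes, the difference kept its direction and its side of the threshold in 87 with arrays centred and with a robust prior, 85 with array weights, 84 with the wild type arrays alone, 68 with arrays scaled and 67 with consecutive arrays averaged. The removals of the length trend were chosen after seeing the data, and 80, 66 and 79 genes did so with it, with scaling added, and with the wild type arrays alone. With arrays scaled, differences turned for ENP1 (-1.20), HXK1 (0.92), HXT7 (0.94), MAL33 (1.31), RSA4 (-0.94) and SUC2 (0.43). Of these, HXK1 and SUC2 were not called after the turn (adjusted p = 0.108 and 0.244, limma). With scaling and the length trend removed, differences turned for ENP1 (-1.02), HXK1 (0.45) and MAL33 (0.99). That of HXK1 was again not called (adjusted p = 0.469, limma). With the length trend removed, differences turned for CYR1 (-0.17, also with the wild type arrays alone) and TSL1 (-0.82). That of CYR1 was not called (adjusted p = 0.513, limma).

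Counts of calls moved as follows, where the difference had 2220 calls, 1018 higher and 1202 lower at pH 8, and 22 of the lists had at least 5 genes tested and 50% of them called. With arrays scaled there were 654 differences (483 and 171), 2035 calls at low glucose (930 higher), 69 opposite genes, 79 stronger at low glucose, 164 at pH 8 alone, 226 at low glucose alone and 2 such lists. With the length trend removed there were 1314 differences (585 lower), 84 opposite genes, 115 at pH 8 alone, 464 at low glucose alone and 11 lists. With scaling added there were 273 differences (178 and 95), 1955 calls at low glucose (966 and 989), 38 opposite genes, 48 stronger at low glucose, 60 at pH 8 alone, 74 at low glucose alone and 1 list. With the length trend removed on the wild type arrays alone there were 1338 differences (621 lower), 92 opposite genes, 113 at pH 8 alone, 466 at low glucose alone and 14 lists. The cause of these shifts was not tested.

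With consecutive arrays averaged, which leaves fewer samples, there were 719 differences (449 and 270), 1714 calls at pH 8 (776 and 938), 35 opposite genes, 7 stronger at pH 8, 227 stronger at low glucose, 398 alike, 31 at pH 8 alone, 397 at low glucose alone and 3 lists. With the pair as a random block there were 87 opposite genes, 31 stronger at pH 8 and 176 at pH 8 alone. With array weights there were 432 opposite genes, 166 stronger at pH 8, 1218 stronger at low glucose, 430 at pH 8 alone and 35 lists. With a bound of 0.5 in place of 1 log2 unit, 144 genes were alike and 103 at pH 8 alone. At least 2-fold differences numbered 882.

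Leaving out 1 array at a time gave 1042 to 2165 differences (574 to 1012 higher, 468 to 1153 lower). It gave 70 to 149 opposite genes, 9 to 56 stronger at pH 8, 399 to 639 stronger at low glucose, 434 to 765 alike, 67 to 274 at pH 8 alone, 418 to 955 at low glucose alone and 5 to 23 lists. The lowest of each came without 1 of the low glucose arrays. Without 1 of the 2 the lone array is assumed to vary like the other groups.

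The labels number the arrays but do not pair them, and deviations of same-numbered wild type arrays correlated at -0.18 and -0.23 over 2980 genes. With the replicate number as a block (replicate block), 1708 differences were called, with 85 opposite genes, 523 stronger at low glucose and 176 at pH 8 alone.

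The number of arrays limits the precision: the median SE of a difference was 0.203 log2 units, so small differences may be missed. Whether arrays are separate cultures is not stated, and with consecutive arrays averaged 143 of the 183 genes that held in all 4 forms were still called.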
